A study of Homo sapiens with 6 samples.

Results

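The genes described here serve the unfolded protein response and protein folding in the endoplasmic reticulum (ER), the compartment in which secreted and membrane proteins are made. They are 37 genes chosen by symbol for their roles: ER stress sensors, chaperones, disulfide enzymes, ER-associated degradation, the CREB3 family of membrane-bound transcription factors, and protein entry into and exit from the ER. All 37 were found among the 20332 genes of the expression table, and all 37 passed the filter on low values, so each one was tested. The cells were LX-2, an immortalized line of human hepatic stellate cells, and their RNA was sequenced. The 3 treated libraries came from cells given TGF-β1 together with 10 µM of a compound that the labels call 11, and the 3 control libraries from cells given TGF-β1 with the solvent DMSO. Treatment lasted 48 h. TGF-β1, the cytokine that turns stellate cells into matrix-producing myofibroblasts, was present in both groups, its dose is not stated, and cells without it were not analysed here. Whether the 3 libraries of a group came from separate cultures is not stated. The p-values therefore reflect library-to-library spread alone, and that spread may be technical.

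When unfolded proteins accumulate in the ER, the chaperone HSPA5 (BiP) leaves the stress sensors of the ER membrane. IRE1, encoded by ERN1, splices the mRNA of XBP1, whose product raises genes of folding and degradation. ATF6 travels to the Golgi and is cut there to release a transcription factor that raises chaperones, and PERK, encoded by EIF2AK3, slows translation and favours the factor ATF4. CREB3L1 and CREB3L2 are cut in the Golgi in the same manner as ATF6 and drive secretory and matrix genes. Stellate cells that make collagen depend on this machinery, because procollagen is folded, hydroxylated and exported through the ER.

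The 37 genes moved in both directions with compound 11. The glycan-trimming degradation factor EDEM1, the HSPA5 cochaperone DNAJB9 and the sensor ERN1 were 2.43-fold, 2.04-fold and 2-fold higher, and the ubiquitin ligase SYVN1, its partner SELENOS and the oxidase ERO1A were each about 1.5-fold higher. The transcription factors CREB3L1 and CREB3L2 were 2.85-fold and 1.77-fold lower. The most abundant chaperones moved little: HSPA5 did not pass the test, and CALR and HSP90B1 fell by 14.6% and 14% of their DMSO level. In limma with Benjamini-Hochberg adjustment over all 12067 genes tested, 21 of the 37 (56.8%) passed an adjusted p of 0.05, against 49.6% of all genes tested; 12 were higher and 9 lower. Of all genes tested, 25.3% passed as higher and 24.3% as lower, against 32.4% and 24.3% of the 37, so the counts lie near the background of the whole transcriptome. The median log2 fold change of the 37 was 0.03, against -0.00 for all genes tested.

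**Figure D1:**
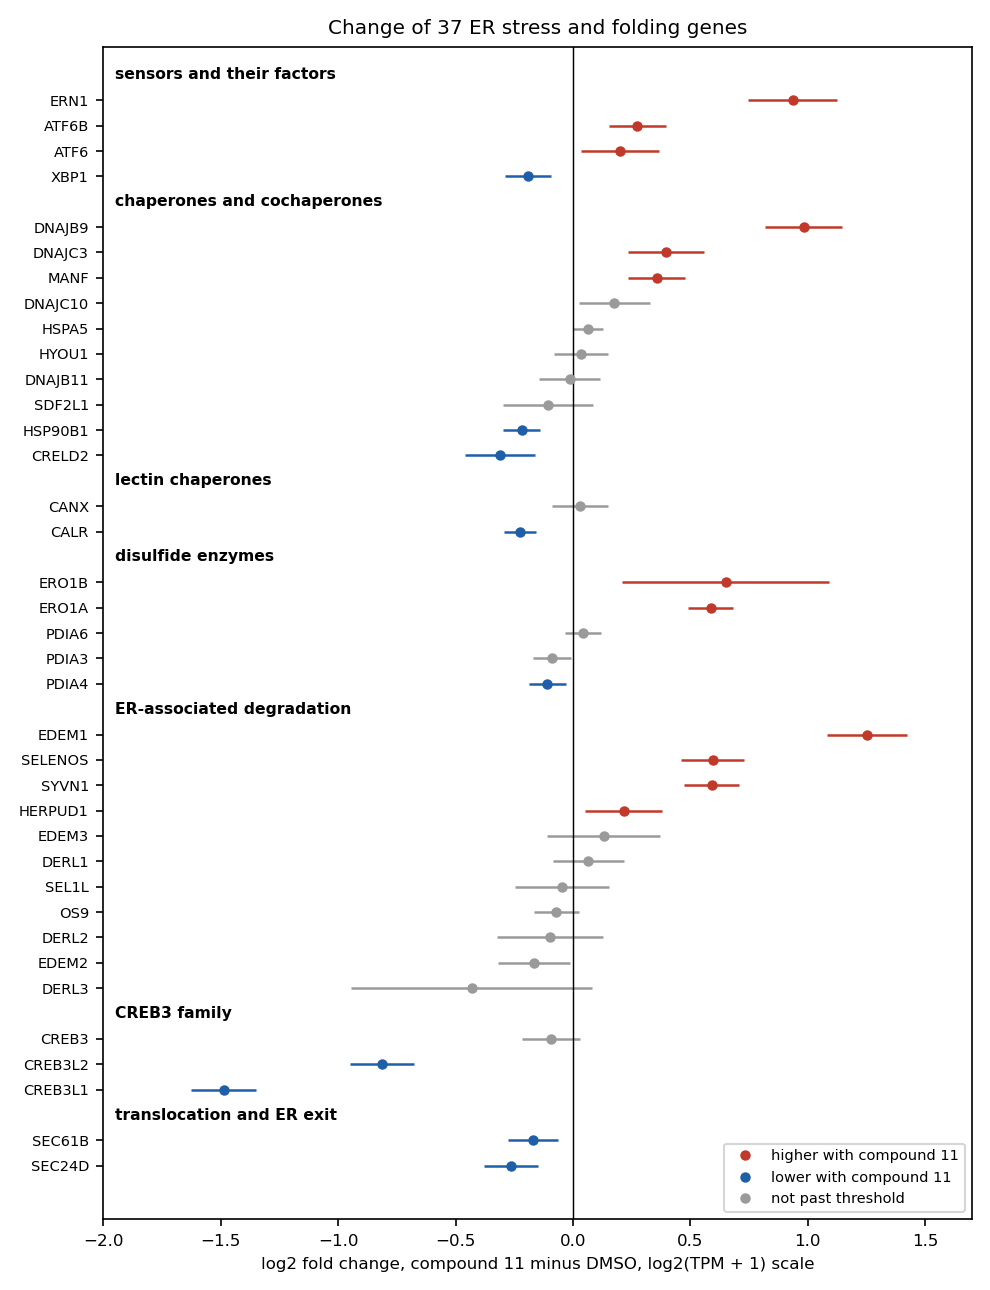
Log2 fold change of each of the 37 genes (compound 11 minus DMSO, on the log2(TPM + 1) scale; points) with its 95% limma interval (lines), grouped by role; 3 libraries per group. Colour marks the call at an adjusted p of 0.05. EDEM1 lies farthest to the right at 1.25 and CREB3L1 farthest to the left at -1.49.

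A log2 fold change of at least 0.5 in either direction was reached by 9 of the called genes, 7 that rose and 2 that fell. They make up 24.3% of the 37, against 20.3% of all genes tested, of which 11.3% were higher and 9.02% lower by this rule. Their values in each library are given below with those of HSPA5, HSP90B1, HERPUD1, XBP1 and ATF6. The groups did not overlap for 24 of the 37, 64.9%, against 57.8% of all genes tested. Of the 21 called genes, ATF6 was the 1 whose groups overlapped. The genes HSPA5, DNAJC10, PDIA3 and EDEM2 did not overlap between groups and yet missed the threshold.

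Values are in TPM, a level scaled for transcript length, so levels of different genes can be set side by side. Each column of the table is scaled to the same total, so the sequencing depth is unknown and no counting error can be given. The 37 genes together held 0.63% of the total with compound 11 and 0.65% with DMSO. Their summed level was 6281, 6164 and 6444 TPM in the compound 11 libraries, against 6596, 6406 and 6485 TPM in the DMSO libraries, and these ranges overlap. Of the 10 markers of stellate cells and myofibroblasts, 7 were tested, and the 10 summed to 7589 to 7793 TPM with compound 11, against 8388 to 8698 TPM with DMSO, mostly the intermediate filament gene VIM. VIM rose 1.17-fold, and the other 6 tested markers fell: ACTA2 28.1-fold, COL3A1 15.2-fold, COL1A1 11.1-fold, COL1A2 8.84-fold, TAGLN 8.33-fold and PDGFRB 2.71-fold. Another such filament gene, DES, was listed at 0 in all 6 libraries. LRAT, the retinol-esterifying enzyme of resting stellate cells, and LUM, lumican, were listed at 0 with compound 11 and reached at most 0.028 TPM (LRAT) and 0.052 TPM (LUM) with DMSO. The 6 hepatocyte markers summed to 18.8 to 27.2 TPM with compound 11, against 3.32 to 4.18 TPM with DMSO, nearly all of it SERPINA1, while APOA1, TTR and HNF4A were listed at 0 throughout. The 5 endothelial markers summed to 7.54 to 8.21 TPM with compound 11, against 1.84 to 2.25 TPM with DMSO. The 5 markers of macrophages and leukocytes, mostly CSF1R, summed to 6.2 to 6.69 TPM with compound 11, against 4.55 to 5.31 TPM with DMSO. CD14, also tested, had a lower mean with compound 11, 1.01 TPM against 1.47 TPM with DMSO, and did not pass. The 4 cholangiocyte markers, mostly SOX9, summed to 38.3 to 38.9 TPM with compound 11, against 26.1 to 31.7 TPM with DMSO. The other tested marker of that list, KRT7, was lower, at 2.45 ± 0.746 TPM with compound 11 and 3.92 ± 0.682 TPM with DMSO (SD, n = 3 each; limma adjusted p = 0.035). The part of these shifts in the results was not tested. In RNA from whole cultures, fewer cells with a transcript and less of it per cell cannot be told apart.

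**Figure D2:**
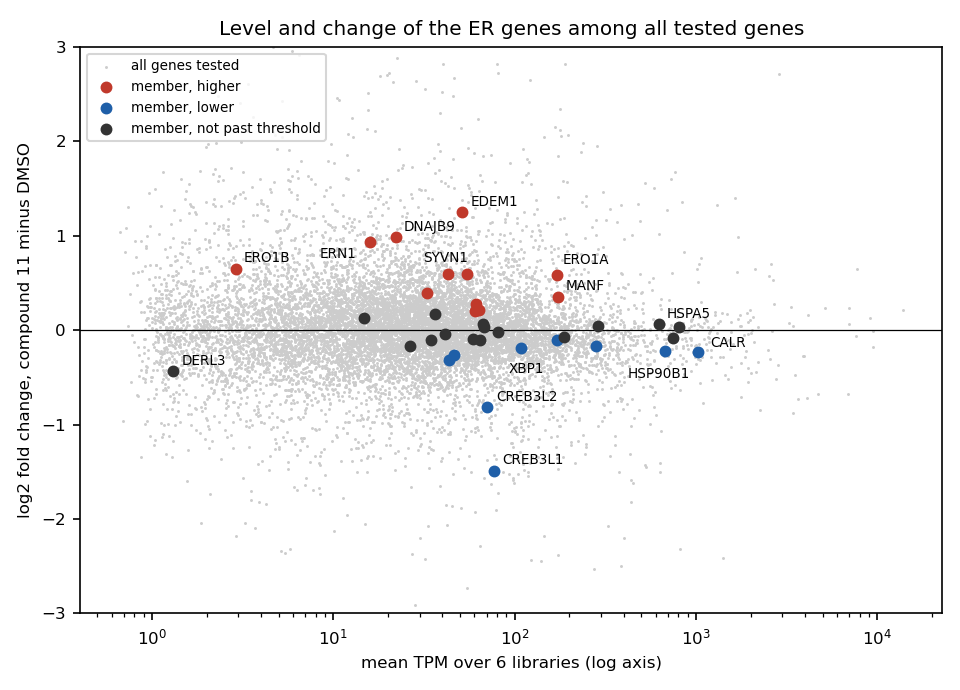
Mean TPM over the 6 libraries (log axis) against log2 fold change (compound 11 minus DMSO) for all genes tested (grey) and the 37 ER genes (coloured by call); 33 genes lie outside the plotted range of 3 in either direction. The chaperones above 600 TPM lie near 0.

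Of the 33 genes with a promoter sequence, 11 carried either form of the ER stress response element (ERSE). The element was first described in promoters of ER chaperones such as HSPA5 and HSP90B1. The 37 genes were chosen for such roles, though not by promoter sequence. A raised share of the element among them follows from that choice and is background. ATF6, together with the CCAAT-binding complex NF-Y, acts at ERSE, which reads CCAAT and CCACG separated by 9 bases. A shorter form, ERSE-II, reads ATTGG and CCACG separated by 1 base. Exact matches on either strand were sought in RefSeq promoter windows (GRCh38.p14) that run from 250 bases before the transcript start to 50 after it. Windows were matched for 33 of the 37 genes; the others were DERL1, DERL3, PDIA3 and SEC24D. ERSE was found in 8 of the 33, 24.2%, against 25 of 27305 genes with a window, 0.0916%, and 16 of the 9838 of them that were tested for expression, 0.163%. ERSE-II was found in 3 of the 33, 9.09%, against 0.0696% of genes with a window and 0.132% of those tested. The 8 base element TGACGTGG, called the unfolded protein response element, was found in 2 of the 33, HYOU1 and DNAJC10, 6.06% against 0.927% of genes with a window and 1.23% of those tested. In HYOU1 it overlaps an ERSE-II. It was also found in 13 of 161 genes of the other pathway lists that had a window, 8.07%.

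The stretches below show the element in a gene that did not pass the test (HSPA5), in 3 that fell (XBP1, CALR and CRELD2) and in 2 that rose (ERO1B and HERPUD1). Each is written 5′ to 3′ on the strand of the gene, from GRCh38.p14, with up to 10 bases on either side and the element in capitals. In CALR, CRELD2 and ERO1B it lies on the opposite strand, so the capitals start with CGTGG and end with ATTGG. They come from chr9:125241381-125241419 (HSPA5, minus strand), chr22:28800593-28800631 (XBP1, minus strand), chr19:12938374-12938412 (CALR, plus strand), chr22:49918544-49918582 (CRELD2, plus strand), chr1:236282173-236282208 (ERO1B, minus strand) and chr16:56932015-56932045 (HERPUD1, plus strand).
HSPA5: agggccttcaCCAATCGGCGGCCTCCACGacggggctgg
XBP1: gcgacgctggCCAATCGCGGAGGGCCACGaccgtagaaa
CALR: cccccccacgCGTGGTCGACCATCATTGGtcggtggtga
CRELD2: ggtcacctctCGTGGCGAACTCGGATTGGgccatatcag
ERO1B: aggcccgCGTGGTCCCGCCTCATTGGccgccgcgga
HERPUD1: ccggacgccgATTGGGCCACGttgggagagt

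The element of XBP1 lies nearest to its start, 52 to 34 bases before it, and that of ERO1B farthest, 243 to 225 bases before it. HSP90B1 holds 2 ERSE and HYOU1 holds 2 ERSE-II. Of the 11 genes with either form, ERO1B and HERPUD1 rose, 4 fell (XBP1, HSP90B1, CALR and CRELD2), and 5 did not pass the test (HSPA5, PDIA6, HYOU1, CANX and SDF2L1). The call of ERO1B was lost in 1 of 12 other settings and that of HERPUD1 in 5 of 13. Of the 22 matched genes without a match, 10 rose and 4 fell. Of all genes tested, 25.3% rose and 24.3% fell. The log2 fold changes ran from -0.31 to 0.65 with a median of 0.03 in the 11, and from -1.49 to 1.25 with a median of 0.15 in the 22. EDEM1, DNAJB9 and ERN1, with the largest rises, had no exact match in these windows, which says nothing of other forms of the element or of other sites. Outside the 37 genes, 18 tested genes held either form, of which 3 rose and 5 fell.

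**Figure D3:**
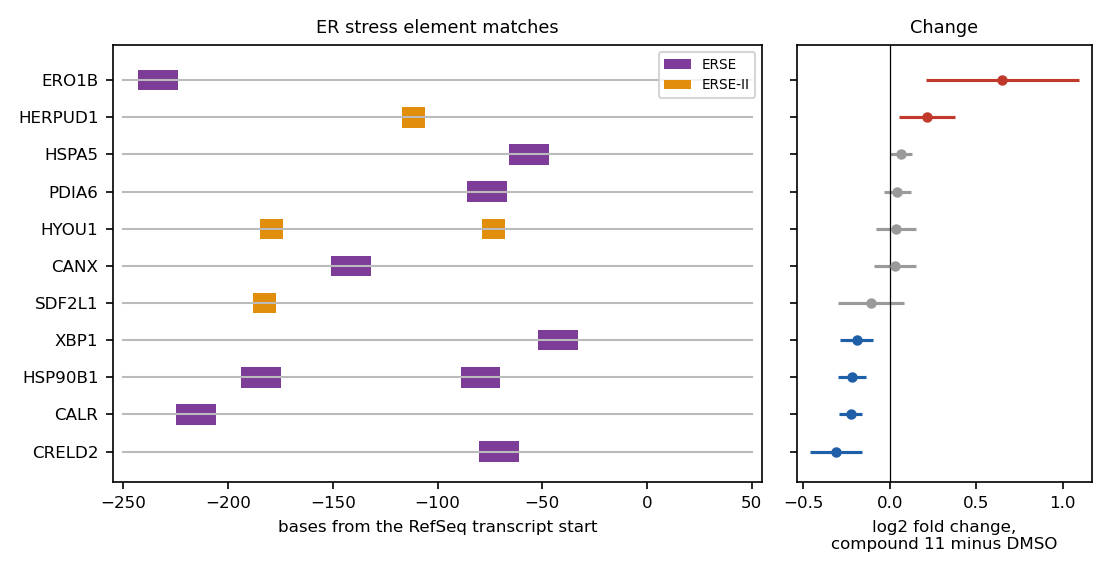
Left, position of exact ERSE (purple) and ERSE-II (orange) matches in bases from the RefSeq transcript start, for the 11 genes that hold them; grey lines span the searched window. Right, their log2 fold changes (compound 11 minus DMSO) with 95% intervals, red for higher, blue for lower and grey for not past the threshold. The 4 genes that fell all carry an ERSE.

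Among the sensors and their factors, 3 of 4 passed as higher and XBP1 as lower, beside 25.3% and 24.3% of all genes tested. In either direction, 49.6% of all genes tested were called. Of the 3 sensor genes that were higher, ATF6 lost its call in 8 of 13 other settings. ERN1 encodes IRE1, the kinase and endonuclease that splices XBP1 mRNA. ERN1 was at 21, 20.6 and 22.1 TPM with compound 11, against 11.5, 10.2 and 10.1 TPM with DMSO. Every compound 11 library lay far above every DMSO library, and the log2 fold change was 0.94 ± 0.08 (SE, limma, Benjamini-Hochberg adjusted p = 1.63e-05). In GENCODE v29 (GRCh38), ERN1 spans bases 64039142 to 64130819 of chromosome 17, minus strand.

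XBP1, the substrate of IRE1, stood at 101, 104 and 98.3 TPM with compound 11, against 118, 112 and 116 TPM with DMSO. The groups did not overlap, and the fall was small (log2 fold change -0.19 ± 0.04, limma adjusted p = 0.00472). A value per gene does not separate spliced from unspliced XBP1 mRNA, which is what IRE1 activity changes, and GENCODE v29 names 1 pseudogene of XBP1 whose share of reads is not known. ATF6, the ER-anchored precursor of a chaperone-inducing factor, was at 70.2, 59.5 and 65.4 TPM with compound 11, against 60.4, 56.4 and 52.3 TPM with DMSO. The groups overlapped, and its limma adjusted p of 0.0478 was above the threshold in 8 of 13 other settings, among them without compound 11 replicate 1 (0.164) or 3 (0.102) and without DMSO replicate 2 (0.0936) or 3 (0.155). ATF6B, its close relative, averaged 67.5 ± 3.31 TPM with compound 11 and 55.6 ± 1.42 TPM with DMSO (SD, n = 3 each; limma adjusted p = 0.00221). ATF6B shares exon sequence with TNXB, which was at 1.81 TPM with compound 11 and 0.954 TPM with DMSO.

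The 10 chaperones and cochaperones went both ways, 3 higher, 2 lower and 5 not past the threshold. Of all genes tested, 25.3% were higher and 24.3% lower. HSPA5, an ER member of the HSP70 family and the classic readout of ER stress, was at 638, 628 and 643 TPM with compound 11, against 608, 616 and 600.4 TPM with DMSO. The groups did not overlap, but they lay within 5% of each other in the mean (log2 fold change 0.06 ± 0.03, upper end of the 95% interval 0.13, limma adjusted p = 0.0902). Quantile normalization alone brought HSPA5 past the threshold (log2 fold change 0.18, limma adjusted p = 0.000582). HSP90B1, the ER member of the HSP90 family, which folds integrins and Toll-like receptors, was at 604, 614 and 648 TPM with compound 11, against 725, 709 and 737 TPM with DMSO. All 3 compound 11 libraries lay below all DMSO libraries (log2 fold change -0.22 ± 0.04, limma adjusted p = 0.000739). HSP90B1 overlaps an exon of UQCC6 on the other strand, which was at 7.82 TPM with compound 11 and 11.6 TPM with DMSO.

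DNAJB9, also called ERdj4, is a J-domain partner of HSPA5 that binds misfolded proteins bound for degradation. It stood at 29.2, 28.4 and 31.4 TPM with compound 11, against 14.1, 14.9 and 14.5 TPM with DMSO. The lowest compound 11 library was well above the highest DMSO library, and the log2 fold change was 0.98 ± 0.07 (limma adjusted p = 4.25e-06). It spans bases 108569568 to 108574850 of chromosome 7, plus strand, and shares exon sequence with PNPLA8 and THAP5 on the other strand. PNPLA8, a phospholipase, rose too, to 64.4 ± 2.6 TPM with compound 11 against 38.2 ± 6.69 TPM with DMSO, whereas THAP5 was at 37.9 ± 1.74 TPM with compound 11 and 36.2 ± 2.09 TPM with DMSO and did not pass (SD, n = 3 each). The use of strand in counting is not given in the sources used here, so reads of such pairs cannot be told apart; 13 of the 37 genes overlap an exon of another gene in the table, 5 of them among the called genes.

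Smaller rises were found for DNAJC3 and MANF. DNAJC3, a J-domain protein of the ER lumen also known as an inhibitor of eIF2α kinases, averaged 37.4 ± 0.975 TPM with compound 11 and 28.2 ± 2.26 TPM with DMSO (limma adjusted p = 0.0014). MANF, a secreted ER stress protein with trophic activity, averaged 194 ± 9.31 TPM with compound 11 and 151 ± 9.08 TPM with DMSO (limma adjusted p = 0.000492). CRELD2, another secreted ER protein that stress induces, went the other way, at 38.8 ± 1.53 TPM with compound 11 and 48.4 ± 3.32 TPM with DMSO (limma adjusted p = 0.00361, SD, n = 3 each throughout). CRELD2 shares exon sequence with ALG12 on the other strand, which was at 11.5 TPM with compound 11 and 12.1 TPM with DMSO.

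DNAJC10, a disulfide reductase, HYOU1, the nucleotide exchange factor of HSPA5, DNAJB11, an HSPA5 cochaperone, and SDF2L1, a luminal partner of DNAJB11, did not pass, with log2 fold changes of 0.18, 0.03, -0.01 and -0.11. DNAJC10 passed without DMSO replicate 3 (limma adjusted p = 0.0235), with the replicate number as a block (0.0344) and under 2 other settings.

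**Figure D4:**
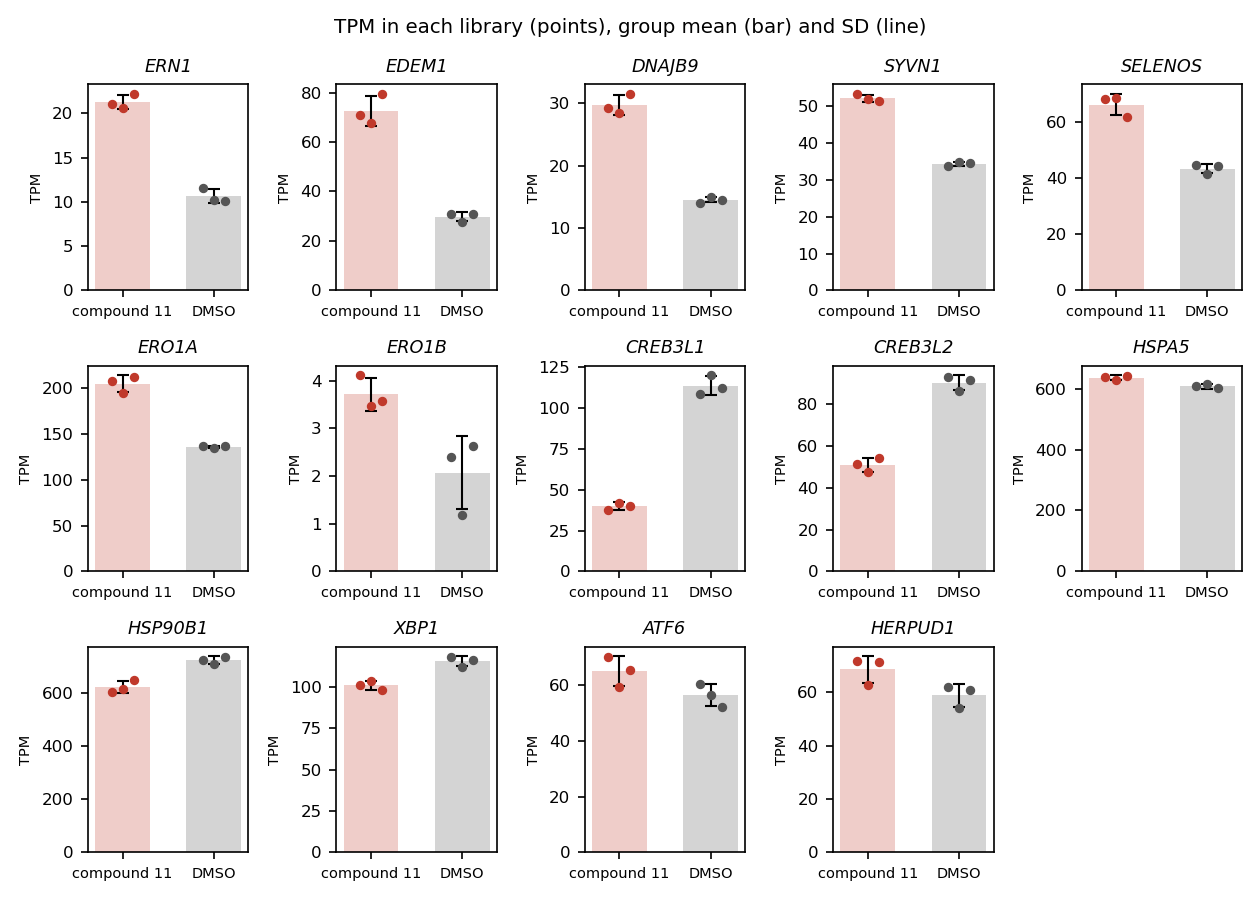
TPM of 14 of the genes in each of the 3 compound 11 and 3 DMSO libraries (points), with the group mean (bar) and SD (line). EDEM1, ERN1 and DNAJB9 stand near or above 2 times their DMSO mean with compound 11, CREB3L1 and CREB3L2 well below theirs, and HSPA5 near its own.

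Calreticulin and calnexin, the lectin chaperones that hold newly made glycoproteins, headed the levels of the whole group. CALR averaged 940 ± 23.3 TPM with compound 11 and 1101 ± 16.1 TPM with DMSO (SD, n = 3 each), a fall in log2 fold change of -0.23 ± 0.03 (limma adjusted p = 0.000214). CANX averaged 819 ± 52.6 TPM with compound 11 and 801 ± 43.2 TPM with DMSO and did not pass (95% interval of the log2 fold change -0.09 to 0.15). In the DMSO libraries CALR was followed by CANX, PDIA3, HSP90B1 and HSPA5. With compound 11 the order was CALR, CANX, PDIA3, HSPA5 and HSP90B1, where HSPA5 and HSP90B1, at 636 and 622 TPM, differed by less than the SD of HSP90B1.

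Of the 5 disulfide enzymes the oxidases rose and the isomerases stayed within 10% of DMSO. ERO1A, the oxidase that recharges protein disulfide isomerases, was at 208, 195 and 212 TPM with compound 11, against 136, 135 and 137 TPM with DMSO. All 3 compound 11 libraries exceeded all DMSO libraries, with a log2 fold change of 0.59 ± 0.04 (limma adjusted p = 3.49e-06). ERO1B, its low-abundance relative, was at 4.11, 3.47 and 3.57 TPM with compound 11, against 2.4, 1.19 and 2.63 TPM with DMSO. The groups did not overlap, the DMSO libraries were spread, and the call (limma adjusted p = 0.0207) was lost without compound 11 replicate 1 (0.0697). ERO1A is also known as a hypoxia-inducible gene.

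Among the isomerases, PDIA4 averaged 165 ± 2.91 TPM with compound 11 and 178 ± 2.27 TPM with DMSO (SD, n = 3 each). Its limma adjusted p of 0.0309 lay above the threshold in 6 of 13 other settings, which include leaving out compound 11 replicate 1 (0.0509) or 2 (0.0927) and DMSO replicate 1 (0.0879) or 2 (0.0884). PDIA3, the glycoprotein-specific isomerase that works with calreticulin, averaged 728 TPM with compound 11 and 774 TPM with DMSO and passed only without compound 11 replicate 3 (limma adjusted p = 0.0412); GENCODE v29 names 2 pseudogenes of PDIA3, and their share of its reads is not known. PDIA6 averaged 291 TPM with compound 11 and 282 TPM with DMSO and passed only under quantile normalization (limma adjusted p = 0.00812).

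In ER-associated degradation, which returns misfolded proteins to the cytosol for the proteasome, 4 of 11 genes rose, 0 fell and 7 did not pass. The 4 are 36.4% of the list, against 25.3% of all genes tested that were higher and 49.6% that were called in either direction. At an unadjusted p under 0.05 in limma, 1 of the 11 was lower, EDEM2. EDEM1 speeds the release of misfolded glycoproteins from calnexin and is a known XBP1 target. EDEM1 was at 70.9, 67.6 and 79.3 TPM with compound 11, against 30.9, 27.6 and 31.1 TPM with DMSO. It had the largest rise of the 37 genes, each compound 11 library above 2 times every DMSO library, with a log2 fold change of 1.25 ± 0.07 (limma adjusted p = 1.02e-06). It spans bases 5187646 to 5219957 of chromosome 3, plus strand. Its relatives EDEM2 and EDEM3 did not pass: EDEM2 averaged 24.8 TPM with compound 11 and 27.9 TPM with DMSO, and EDEM3 averaged 15.5 TPM with compound 11 and 14.1 TPM with DMSO. EDEM2 passed as lower under quantile normalization (limma adjusted p = 0.0243). At DMSO level EDEM1 and EDEM2 were close to each other, at 29.9 and 27.9 TPM.

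SYVN1, also named HRD1, is the ubiquitin ligase at the core of the main degradation channel. SYVN1 was at 53.2, 51.8 and 51.3 TPM with compound 11, against 33.6, 34.7 and 34.4 TPM with DMSO. The libraries of each group lay within a few TPM of each other and the groups stood apart (log2 fold change 0.59 ± 0.05, limma adjusted p = 1.44e-05). SYVN1 shares exon sequence with MRPL49 on the other strand and with FAU on the same strand. FAU, a ribosomal protein gene, averaged 623 ± 25.1 TPM with compound 11 and 729 ± 49.1 TPM with DMSO (SD, n = 3 each) and passed as lower. MRPL49 averaged 81.1 ± 4.48 TPM with compound 11 and 78 ± 2.34 TPM with DMSO (SD, n = 3 each) and did not pass. The part of shared reads in the SYVN1 values was not tested.

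SELENOS, a selenoprotein that ties the ATPase VCP to the channel, was at 68.3, 68.6 and 62 TPM with compound 11, against 44.6, 41.5 and 44.2 TPM with DMSO. The groups did not overlap (log2 fold change 0.6 ± 0.06, limma adjusted p = 3.25e-05). HERPUD1, a ubiquitin-like protein that organizes the SYVN1 complex and turns over fast, was at 71.5, 62.8 and 71.1 TPM with compound 11, against 62, 53.9 and 60.7 TPM with DMSO. The lowest compound 11 library exceeded the highest DMSO library by under 1 TPM. Its limma adjusted p of 0.0324 was above 0.05 in 5 of 13 other settings, among them without compound 11 replicate 1 (0.107) or 3 (0.0954) and without DMSO replicate 2 (0.109).

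The remaining degradation genes showed no call. SEL1L, the adaptor that holds SYVN1, averaged 40.8 ± 3.07 TPM with compound 11 and 42.2 ± 4.53 TPM with DMSO (SD, n = 3 each), with a 95% interval of the log2 fold change of -0.24 to 0.15. OS9, a lectin that delivers substrates to SEL1L, had a log2 fold change of -0.07, and the membrane proteins of the derlin family had 0.07 for DERL1, -0.10 for DERL2 and -0.43 for DERL3. DERL2 was at 74.4, 58.2 and 54.2 TPM with compound 11, against 66.2, 66.4 and 65.8 TPM with DMSO; the library of compound 11 replicate 1 stood above all others, and without it DERL2 passed as lower (limma adjusted p = 0.0122). DERL3 was the lowest of the 37 genes, at 0.996 ± 0.608 TPM with compound 11 and 1.63 ± 0.39 TPM with DMSO (SD, n = 3 each), and passed as lower without compound 11 replicate 3 (limma adjusted p = 0.0284).

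The CREB3 family showed the largest fall. CREB3L1, also called OASIS, is known from mouse bone to activate the type I collagen gene Col1a1. CREB3L1 was at 37.3, 42.1 and 40 TPM with compound 11, against 108, 120 and 112 TPM with DMSO. The highest compound 11 library lay far below the lowest DMSO library, and the log2 fold change was -1.49 ± 0.06 (limma adjusted p = 7.57e-08). It spans bases 46277661 to 46321422 of chromosome 11, plus strand. COL1A1 itself averaged 102 ± 6.91 TPM with compound 11 and 1132 ± 30.9 TPM with DMSO (SD, n = 3 each). A link between the falls of CREB3L1 and COL1A1 was not tested, and ACTA2, COL3A1 and TAGLN fell as well.

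CREB3L2, also called BBF2H7, is known from mouse cartilage to raise the vesicle coat gene Sec23a. CREB3L2 was at 51.7, 47.5 and 54.2 TPM with compound 11, against 93.1, 86.5 and 91.8 TPM with DMSO. The groups stood well apart (log2 fold change -0.81 ± 0.06, limma adjusted p = 4.29e-06). CREB3, the founding member, averaged 56.8 ± 2.15 TPM with compound 11 and 60.6 ± 2.7 TPM with DMSO (SD, n = 3 each) and did not pass (95% interval of the log2 fold change -0.22 to 0.03). The site proteases that cut ATF6 and the CREB3 factors in the Golgi, MBTPS1 and MBTPS2, did not pass either, with log2 fold changes of 0.06 and 0.01.

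Both genes of ER entry and exit among the 37 were lower with compound 11, as were 24.3% of all genes tested. SEC24D, a cargo-binding subunit of the COPII coat that is known to carry procollagen, averaged 42.3 ± 1.25 TPM with compound 11 and 50.9 ± 0.67 TPM with DMSO (SD, n = 3 each; limma adjusted p = 0.00224). SEC61B, a subunit of the protein-conducting channel, averaged 265 ± 11.8 TPM with compound 11 and 299 ± 13.9 TPM with DMSO (SD, n = 3 each). Its limma adjusted p of 0.0134 was above 0.05 under quantile normalization (0.149), without a variance trend (0.059) and without DMSO replicate 3 (0.0532).

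Other genes of the pathway, taken from 8 lists by function, also moved in both directions. Of the 188 genes, 183 were tested; 49 rose and 40 fell, beside 25.3% and 24.3% of all genes tested, and the median log2 fold change was -0.00. Those shares of all genes are also the background for the counts of each list below. In the PERK and ATF4 arm 6 of 16 rose and 5 fell. The sensor kinase EIF2AK3 and ATF4 did not pass, at 15.2 TPM with compound 11 against 13.9 TPM with DMSO for EIF2AK3 and at 646 TPM with compound 11 against 653 TPM with DMSO for ATF4. The 95% intervals of their log2 fold changes were -0.07 to 0.30 for EIF2AK3 and -0.10 to 0.08 for ATF4. PPP1R15A, the phosphatase subunit that restores translation, rose to 278 ± 2.02 TPM with compound 11 against 92.4 ± 2.65 TPM with DMSO (SD, n = 3 each; limma adjusted p = 2.57e-09). CEBPB, a transcription factor, was 3.48-fold higher, and SLC3A2, an amino acid transporter subunit, 1.82-fold higher. DDIT3, the stress factor CHOP, rose to 71.8 ± 6.54 TPM with compound 11 against 35.6 ± 4.11 TPM with DMSO (SD, n = 3 each; limma adjusted p = 1.98e-05). CHAC1, an enzyme that breaks down glutathione and a known ATF4 target, fell to 16.9 ± 1.93 TPM with compound 11 against 42 ± 4.31 TPM with DMSO (limma adjusted p = 8.29e-06).

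Of 18 genes that process or assist the sensors, 16 were tested, 2 rose and 3 fell. FICD, which modifies HSPA5 by AMPylation, rose to 23.5 ± 1.58 TPM with compound 11 against 11.2 ± 1.63 TPM with DMSO, a 2.1-fold difference, and it holds an ERSE in its promoter window. TMBIM6, an ER membrane protein that restrains cell death, was 1.52-fold higher. NFYA, a subunit of the NF-Y complex that binds CCAAT, was 1.5-fold lower, and RTRAF, a partner of the ligase that joins XBP1 exons, was 1.12-fold lower. RTRAF lost its call under quantile normalization.

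Of 36 tested ER folding enzymes outside the 37 genes, 9 rose and 9 fell. QSOX1, a secreted disulfide oxidase, was 1.53-fold lower and the calcium-binding CALU 1.29-fold lower, while RCN1 was 1.25-fold and ERP29 1.18-fold higher. P4HB, the founding protein disulfide isomerase and a subunit of collagen prolyl hydroxylase, averaged 917 TPM with compound 11 and 969 TPM with DMSO and did not pass. Of 32 genes of N-glycosylation and glycan quality control, 10 rose and 5 fell. TUSC3, an oxidoreductase subunit of oligosaccharyltransferase, was 1.4-fold higher, ALG5 and ALG2, which build the lipid-linked glycan, 1.52-fold and 1.42-fold higher, and OST4, a small transferase subunit, 1.26-fold lower. Without DMSO replicate 3, 3 genes of this list fell in place of 5.

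Of 24 genes of the translocon, signal recognition particle and signal peptidase, 4 rose and 7 fell. TRAM2, a channel-associated protein linked to type I collagen synthesis, was at 72.8 ± 3.02 TPM with compound 11 and 163 ± 6.23 TPM with DMSO (SD, n = 3 each), 2.24-fold lower. SEC11C and SPCS3, subunits of signal peptidase, were 1.64-fold and 1.24-fold higher, and SRP72 was 1.16-fold lower. The count of genes that fell was 4 without compound 11 replicate 1, 4 without DMSO replicate 2 and 4 without a variance trend, and under quantile normalization 7 rose and 4 fell.

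Of 25 other genes of ER-associated degradation, 9 rose and 2 fell, beside 25.3% and 24.3% of all genes tested. AUP1, which links the channel to ubiquitin conjugation, was 1.43-fold higher, HERPUD2, the relative of HERPUD1, 1.64-fold, BCAP31 1.21-fold and the signal peptide peptidase HM13 1.18-fold higher. Without compound 11 replicate 3, and under quantile normalization, 4 genes of this list fell. Of 26 tested COPII and ER exit genes, 4 rose and 9 fell, beside the same shares of all genes. SEC23A, the coat subunit whose mouse gene is a known target of Creb3l2, was at 112 ± 4.85 TPM with compound 11 and 150 ± 4.83 TPM with DMSO (SD, n = 3 each). A link to the fall of CREB3L2 was not tested. KDELR3, a receptor that retrieves ER residents, was 1.32-fold lower and SEC13 1.22-fold lower, while MCFD2, a cargo receptor subunit, was 1.36-fold higher.

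Of 8 receptors of ER-phagy, by which pieces of the ER are delivered to lysosomes, 5 rose and 0 fell in limma. Of all genes tested, 25.3% were higher and 24.3% lower, and 8 genes are a short list. The median log2 fold change of the 8 was 0.27. At an unadjusted p under 0.05, 1 further gene was lower, RETREG1 (log2 fold change -0.22), which is named after its values were seen. CCPG1, which the unfolded protein response is known to induce, was at 69.2 ± 1.73 TPM with compound 11 and 43.5 ± 1.58 TPM with DMSO (SD, n = 3 each). CALCOCO1 was 1.53-fold, RETREG2 1.29-fold and RETREG3 1.27-fold higher. A gene of this list passed as lower under quantile normalization, with the replicate block and without compound 11 replicate 3, 1 in each case.

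**Figure D5:**
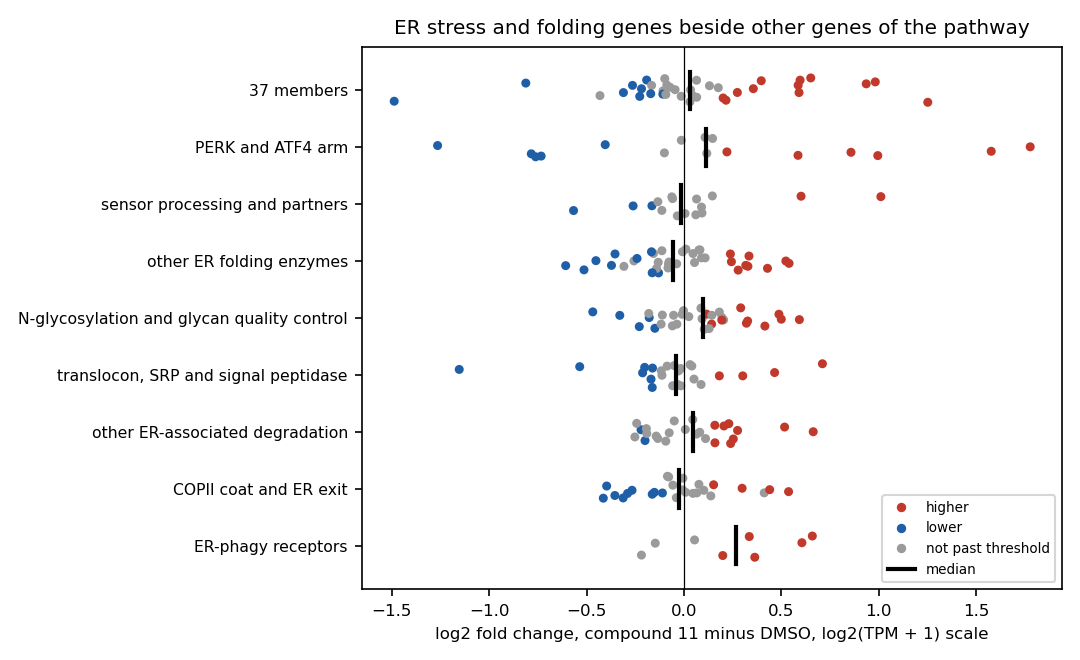
Log2 fold change (compound 11 minus DMSO, log2(TPM + 1) scale) of the 37 genes and of the tested genes of 8 other lists of the pathway, each point a gene, coloured by its call; black bars are medians. The medians lie between -0.06 and 0.27, and the list of ER-phagy receptors, the shortest with 8 genes, has the highest.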

How the data were processed

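Gene expression was measured by RNA sequencing in 6 libraries of LX-2 cells. The authors deposited 1 table whose header names FPKM; every column sums to 1000000, so the deposited values were taken as TPM. Low values fell with transcript length: the 1st percentile of values above 0 was 0.049 to 0.0813 in the quartile of shortest genes and 0.02 to 0.0233 in that of the longest. Per the submitters' processing notes, processing involved Bowtie 0.12.2; a human build, GRCh38.p12, and a mouse build, mm8, are named without their roles. No source used here gives the counting tool, annotation, strand setting or filters, and depth is unknown.

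The 12067 genes of 20332 that reached 1 TPM in 3 or more libraries were tested on log2(TPM + 1) with limma 3.58.1 in R 4.3.3, with a mean trend of the variance, as a two-sided test; p-values were adjusted by Benjamini-Hochberg and called under 0.05. Fold changes on this scale understate changes of low genes. The design had foreseen FPKM values, and the same test was used. The procedure was also run on simulated data with independent noise and a far smaller share of changed genes than was called here. That run does not give the error rate in these data. Libraries were grouped by their labels, and the alternatives were another pseudocount, other filters, upper-quartile and quantile scaling, no variance trend, a replicate block and each library left out. The 37 genes, the lists and the markers were chosen with earlier results of these data known. Values in every library were given for called genes with a log2 fold change of at least 0.5 in either direction and for HSPA5, HSP90B1, DNAJB9, HERPUD1, XBP1, ERN1, ATF6 and CREB3L1. Of each pathway list the 4 genes of smallest p were named, with ATF4, DDIT3, EIF2AK3, MBTPS1, MBTPS2 and P4HB. DERL2 was shown by library after its values were seen, because 1 library decided its call. Gene coordinates and exon overlaps came from GENCODE v29 (20113 identifiers found), and promoter windows of 27305 genes from RefSeq.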

Additional observations from a re-analysis of the deposited data

How the results depend on the processing

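Over 13 other settings, 16 of the 21 called genes kept their call in each one, and ATF6, HERPUD1, PDIA4, SEC61B and ERO1B lost it in at least 1. A call was gained in at least 1 setting by 7 genes: HSPA5, PDIA6, EDEM2, DNAJC10, PDIA3, DERL2 and DERL3. No called gene of the 37 changed sign. The cause of these moves was not tested, apart from the loss of a library by construction. Of the 37, 9 to 12 passed as higher and 8 to 11 as lower when 1 library was left out, and 10 to 13 as higher and 7 to 9 as lower under the other settings. Of all genes, 2632 to 2862 passed as higher and 2495 to 2799 as lower with 1 library left out, against 3052 and 2932 with all. Of the pathway genes, 41 to 48 rose and 33 to 41 fell with 1 library left out. The median log2 fold change of all genes was -0.025 under quantile normalization, against -0.0013 without it. With the replicate number as a block, 13 of the 37 were higher and 9 lower, 3172 and 3054 of all genes, and 51 and 43 of the pathway genes. Deviations from the group means of same-numbered libraries correlated at 0.0794, 0.149 and 0.0663, and every library correlated best with its own number. Deviations within a group are tied together by the group mean, so these correlations are not independent. They are small and cannot decide whether libraries were paired, which the design does not state. Depth is unknown, so the counting error of low genes such as DERL3 and ERO1B cannot be given.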
